A study of Mus musculus with 1 sample.

Results

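The ERBB receptors and the EGF-family ligands that bind them were examined on an expression array of the mouse line labelled KR Primary. The labels describe it as lung cancer cells that came from a KR tumor in the B6/J strain. The members were every probe set that the platform's annotation assigned to a single gene out of 4 receptors (Egfr, Erbb2, Erbb3 and Erbb4) and 6 ligands (Areg, Ereg, Hbegf, Tgfa, Btc and Egf). They came to 20 probe sets of 9 genes, out of 34945 one-gene probe sets of 18193 genes on the array, with 11 probe sets for the 4 receptors and 9 for 5 of the ligands. The remaining ligand, Areg, which encodes amphiregulin, had no one-gene probe set in that annotation and was not analysed here. The labels do not spell out KR or give a genotype. The cells had grown in medium with 10% fetal bovine serum to a confluence of 80 to 90%. There was 1 sample of 1 group, with no control group and no replicate. Replicate errors and p-values therefore cannot be given, and the serum in the medium was part of the only condition measured.

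ERBB receptors are tyrosine kinases of the cell surface. Binding of a ligand brings a pair of receptors together, and the phosphorylated tails then recruit adaptors that pass the signal to RAS, to phosphoinositide 3-kinase and to STAT proteins. EGF-family ligands are made as membrane-anchored precursors, which ADAM proteases cut to release the soluble growth factor. In lung epithelium the system is known for roles in growth and repair, and EGFR is a known driver gene of human lung adenocarcinoma. Egfr binds EGF, transforming growth factor alpha, amphiregulin, epiregulin, betacellulin, epigen and heparin-binding EGF-like growth factor. Erbb2 has no known ligand of its own and acts as a partner of the others, Erbb3 has a weak kinase and binds neuregulins, and Erbb4 binds neuregulins and some of the EGFR ligands.

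A probe set reports how brightly a group of short probes hybridized to a target transcript, in arbitrary units of fluorescence. Each signal was set against a background taken from the same array, namely 126 probe sets of 112 genes for keratin-associated proteins and for olfactory, vomeronasal and taste receptors. The 95th percentile of their signals, 16.8, is called the background line here. The highest of them, 60.6 for Krtap12-1, is called the upper background limit. A gene counted as above either threshold if its highest probe set was. By that rule 63.3% of all genes exceeded the line, and 47.5% exceeded the upper limit. Signals of different probe sets cannot be ranked as RNA amounts, because probe sets differ in brightness. The label of the cells was checked against markers. All 10 epithelial markers, Cdh1 and Krt8 among them, were above the line, as were 5 of 11 lung lineage markers. Of the epithelial markers 9 were also above the upper limit, while Ovol1 reached 29.3 with 1 of its 2 probe sets above the line. Of the lung lineage markers, Lpcat1, Sftpd and Abca3 reached 404, 397 and 370, above the upper limit. Sftpb at 28.9 and Sftpc at 21.1 lay between the thresholds. The other 6 were not above the line, among them the lung transcription factor gene Nkx2-1 at 7.66. Of the markers of other cell types, 3 of 11 for leukocytes, 3 of 10 for fibroblasts and 2 of 9 for endothelium were above the line. The leukocyte gene Ptprc, the fibroblast gene Col1a1 and the endothelial gene Pecam1 read at most 11.5, 10.4 and 14.3. Among the leukocyte markers that passed, Cd14 at 255 and Cd68 at 69.8 were also above the upper limit, and Csf1r reached 47.1 with all 3 probe sets above the line. No fibroblast or endothelial marker exceeded the upper limit. What part other cells had in the members' signals was not tested.

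Of the 9 measured members, 7 were above the background line, and the same 7 were above the upper limit, against 63.3% and 47.5% of all genes. They were the receptor genes Egfr, Erbb2 and Erbb3 and the ligand genes Ereg, Hbegf, Tgfa and Btc. Erbb4 and Egf were not above the line. The median over the members' highest probe sets was 4.17 above the line on the log2 scale, whereas over all genes it was 1.52. The count depends on how many chances a gene had. All 5 members with 2 or more probe sets passed the line, where 78.6% of all such genes did. Among the members with a single probe set, 2 of 4 passed, where 48.4% of all such genes did. Counted by probe set, 16 of 20 exceeded the line and 12 exceeded the higher threshold, against 60.9% and 41.1% of all one-gene probe sets.

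**Figure D1:**
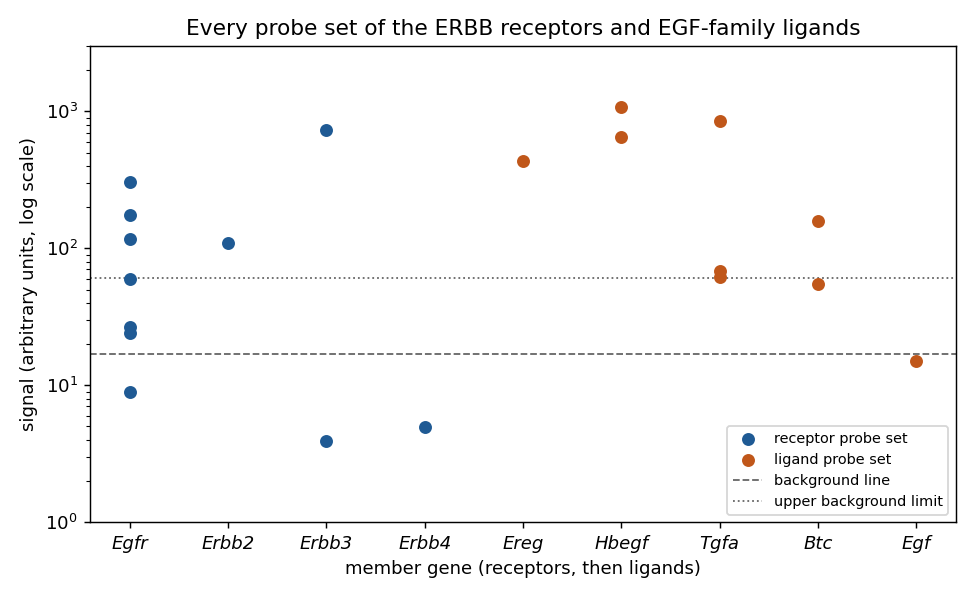
Signal of each of the 20 probe sets (points, arbitrary units on a log axis) of the 9 measured members, receptors at the left and ligands at the right, with the background line at 16.8 and the upper background limit at 60.6. Hbegf, Tgfa, Erbb3 and Ereg reach 1071, 856, 736 and 436, the 7 Egfr probe sets run from 8.96 to 303, and Erbb4 and Egf lie under the line.

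Promoter sequence came from a RefSeq promoter table on build GRCm38.p6, and the stretch used was the 250 bases before a transcript's start. Stretches of 6 of the 9 measured members are listed here, without Erbb3, Ereg and Hbegf. Member entries on 1 chromosome were left out by rule, so a member without a stretch here may still have an entry. The stretches of 4 members are printed because they set a receptor and a ligand above both thresholds, Egfr and Tgfa, beside a receptor and a ligand not above the line, Erbb4 and Egf. Capitals mark the GC box, searched as GGGCGG and on the opposite strand as CCGCCC, which 32.7% of all 32851 such stretches hold. The stretches lie at chr11:16751953-16752202 on the plus strand for Egfr, chr6:86194972-86195221 on the plus strand for Tgfa, chr1:69108060-69108309 on the minus strand for Erbb4 and chr3:129755323-129755572 on the minus strand for Egf.
Egfr: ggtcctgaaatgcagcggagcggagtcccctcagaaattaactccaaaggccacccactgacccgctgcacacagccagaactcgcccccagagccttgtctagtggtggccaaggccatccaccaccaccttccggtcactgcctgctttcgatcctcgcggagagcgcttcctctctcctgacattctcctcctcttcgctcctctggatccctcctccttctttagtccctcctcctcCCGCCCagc
Tgfa: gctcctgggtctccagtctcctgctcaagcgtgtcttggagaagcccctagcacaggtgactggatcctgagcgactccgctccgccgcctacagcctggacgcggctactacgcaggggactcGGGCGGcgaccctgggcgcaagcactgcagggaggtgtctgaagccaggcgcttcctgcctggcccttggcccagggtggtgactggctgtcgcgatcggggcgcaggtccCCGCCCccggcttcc
Erbb4: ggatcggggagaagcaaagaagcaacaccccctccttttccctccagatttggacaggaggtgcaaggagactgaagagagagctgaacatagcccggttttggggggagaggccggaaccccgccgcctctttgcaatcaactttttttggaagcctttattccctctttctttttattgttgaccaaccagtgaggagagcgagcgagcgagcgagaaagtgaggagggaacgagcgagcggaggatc
Egf: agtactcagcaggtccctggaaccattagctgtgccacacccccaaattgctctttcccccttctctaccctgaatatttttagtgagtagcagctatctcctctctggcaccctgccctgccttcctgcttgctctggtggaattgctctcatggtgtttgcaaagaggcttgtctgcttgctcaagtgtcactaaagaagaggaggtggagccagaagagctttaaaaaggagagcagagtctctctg
The Tgfa stretch holds 2 GC boxes and the Egfr stretch 1, and those of Erbb4 and Egf hold none. The stretches of the other 2 listed members, Erbb2 and Btc, hold none either, although both genes were above the upper limit. No member stretch listed for a measured gene holds TATAAA, searched on both strands and found in 12.4% of all stretches. Areg, outside these 6 because it was not analysed on the array, has a stretch with 1 such match and 1 GC box. The Tgfa stretch has 19 CG dinucleotides and a G+C content of 69.2%, whereas the Egf stretch has 0 and 50.4%. A second Egf start in the table has 15. The Erbb4 stretch has 12 CG dinucleotides, as against 11 for Egfr, 16 for Erbb2 and 4 for Btc. Over the array, 83.3% of 7627 genes with a CpG-rich stretch were above the line, against 44.5% of 6825 other genes. CpG-rich here means G+C of at least 50% and a CG count at least 0.6 of that computed from C and G content. Among genes with a single probe set, the shares were 73.7% of 2938 CpG-rich and 34.1% of 4309 other genes. Among the 6 listed members the class did not separate the calls, and so few genes cannot show whether it follows them. Of the 4 listed members above the line, Erbb2 and Tgfa were CpG-rich and Egfr and Btc, with ratios of 0.55 and 0.18, were not. Both listed members not above the line were CpG-rich, but Egf only by its second start, since its printed stretch is not.

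Egfr, the receptor that binds every measured member ligand, was measured by 7 probe sets. The signals were 303, 175, 118, 59.8, 26.5, 23.9 and 8.96, from 1435888_at, 1424932_at, 1460420_a_at, 1451530_at, 1432647_at, 1454313_at and 1457563_at. Thus 3 were above the upper limit, 3 lay between the thresholds and 1 was not above the line. The range over the Egfr probe sets was 5.08 on the log2 scale, and genes with 7 or more probe sets of which at least 1 passed the upper limit had a median range of 5.87. Part of this spread arose between probe sets that the annotation traces to a common source sequence. The pair 1424932_at and 1451530_at read 175 and 59.8, a difference of 1.55 on the log2 scale, while the pair 1432647_at and 1454313_at, of another source sequence, read 26.5 and 23.9, a difference of 0.15. Whether the groups of probe sets report different Egfr transcripts was not tested.

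Erbb2, the receptor without a known ligand, read 109 on its only probe set, 1424919_at, which exceeded the line by 2.70 and the upper limit by 0.85 on the log2 scale. It has no further one-gene probe set. Of all one-gene probe sets 67.3% had a lower signal. Its 6 nearest measured protein-coding neighbours on the chromosome all passed the line, against 63.3% of all genes. The upper limit was passed by 2 of the 6, against 47.5% of all genes, with Mien1 the highest at 713. Pnmt, Tcap, Pgap3 and Ikzf3 lay between the thresholds at 37.2, 25.1, 17.8 and 16.86, the last barely above the line of 16.80.

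Erbb3, the neuregulin receptor with a weak kinase, gave opposite calls on its pair of probe sets. The probe set 1434606_at read 736, higher than 91.7% of one-gene probe sets, and 1452482_at read 3.95, lower than the background median of 6.41. The difference was 7.54 on the log2 scale. Among 2575 genes with 2 probe sets and the higher above the upper limit, the median difference was 1.94, and 97.6% had a smaller difference than Erbb3. The annotation traces the Erbb3 probe sets to different source sequences. The call of Erbb3 therefore rests on 1434606_at alone, and the gene has no further one-gene probe set.

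**Figure D2:**
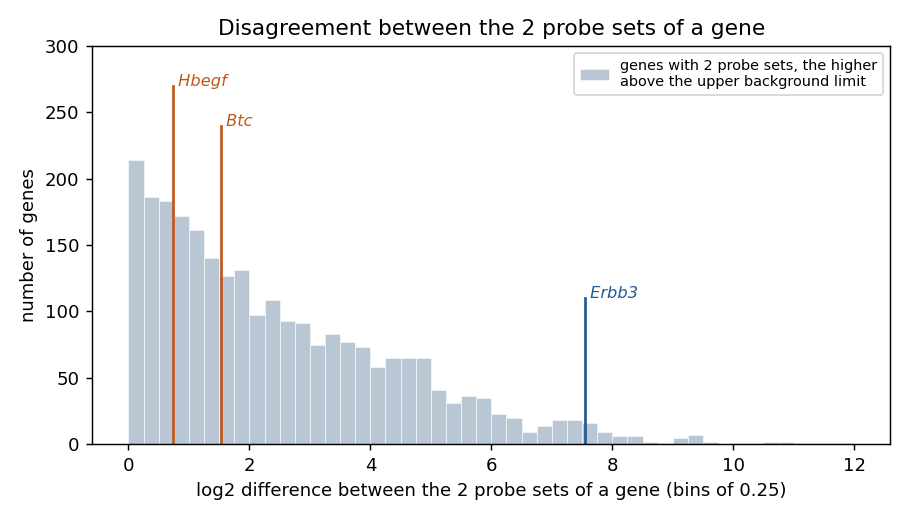
Number of genes (bars) by the log2 difference between the 2 probe sets of the gene, over the 2575 genes with 2 probe sets of which the higher exceeded the upper background limit, with Erbb3, Btc and Hbegf marked by vertical lines. Erbb3 lies in the far tail at 7.54, while Hbegf at 0.73 and Btc at 1.53 lie under the median of 1.94.

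Erbb4, the other neuregulin receptor, read 4.97 on its only probe set, 1427783_at, which was -1.76 relative to the line on the log2 scale and under the background median. At that signal the array gives no level for Erbb4 RNA, and 1 probe set cannot show that the transcript was missing. Neighbours on the chromosome were mixed, with 2 of 6 above the line, against 63.3% of all genes.

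Hbegf, the gene of heparin-binding EGF-like growth factor, gave the most even readings of the members with several probe sets. They were 1071 on 1418350_at and 647 on 1418349_at, higher than 94.5% and 90.6% of one-gene probe sets. Both readings were above the upper limit, by 4.14 and 3.42 on the log2 scale. The difference between them, 0.73 on the log2 scale, was smaller than in 78.1% of the genes with 2 probe sets described above.

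Tgfa, which encodes transforming growth factor alpha, passed the upper limit on all 3 probe sets, but by very different margins. The probe set 1421943_at read 856, whereas 1450421_at read 68.3 and 1421942_s_at read 61.3. These lower readings exceeded the upper limit by 0.17 and 0.02 on the log2 scale. All 3 probe sets trace to a common source sequence, and the range over them, 3.80 on the log2 scale, was wider than in 85.3% of the 2471 sources that had 2 or more probe sets and at least 1 above the upper limit. The median range over those sources was 1.45, not matched for the number of probe sets. Matched for that number, but not for a common source, the Tgfa range was less unusual. Among 1591 genes with 3 probe sets and at least 1 above the upper limit, the median range was 3.41, and 56.2% had a smaller range than Tgfa. The ending of 1421942_s_at marks a probe set that can match more than 1 transcript.

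Ereg, the gene of epiregulin, read 436 on its only probe set, 1419431_at, which exceeded the line by 4.70 and the upper limit by 2.85 on the log2 scale. Btc, the gene of betacellulin, read 158 on 1435541_at and 54.5 on 1421161_at. The higher Btc reading was above the upper limit and the lower one lay between the thresholds, 1.53 apart on the log2 scale. Egf, the founding ligand of the family, read 15.1 on its only probe set, 1418093_a_at, which was -0.16 relative to the line on the log2 scale. That margin is small, and 63.0% of one-gene probe sets had a higher signal.

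**Figure D3:**
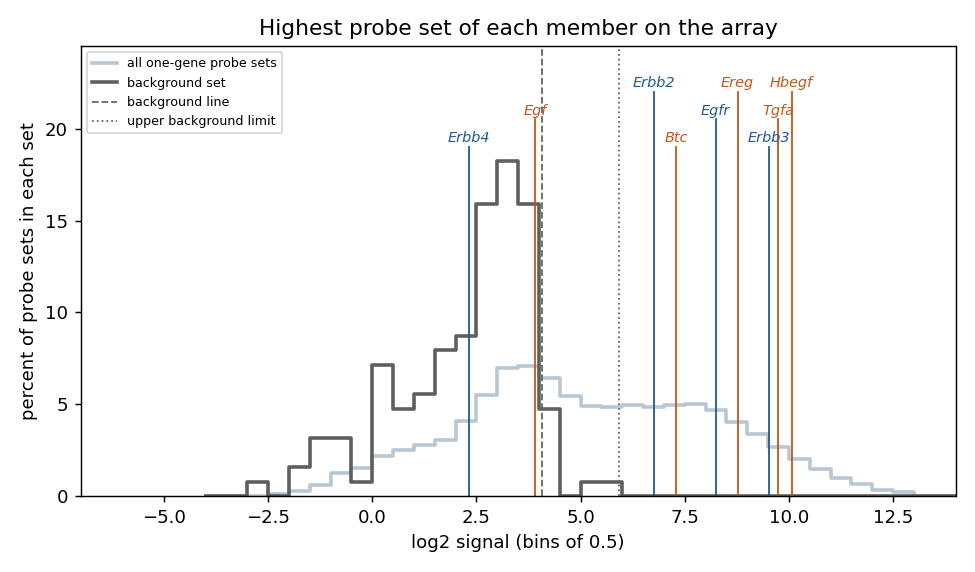
Distribution of log2 signal (horizontal axis, bins of 0.5) over all one-gene probe sets and over the 126 background probe sets, each as a percent of its own set, with the highest probe set of each of the 9 measured members as a vertical line (receptors blue, ligands orange). Erbb4 and Egf fall inside the background distribution, and the other 7 lie to the right of the upper background limit.

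Ereg, Areg and Btc lie next to each other on chromosome 5, together with Epgn, the gene of epigen, with no other protein-coding gene between them in RefSeq. Their readings were not alike. Ereg reached 436 and Btc 158, but Epgn, with a single probe set, read 9.40 and missed the line. Beyond the ligands, Mthfd2l, next to Epgn, reached 376 with all 4 probe sets above the line, and Cxcl2 further out read 11.9. On the side of Btc, Parm1, Rchy1 and Cdkl2 reached 168, 441 and 225. Epgn, not above the line, thus stood between genes above the upper limit on either side. Over all members, 34 of 48 distinct neighbouring genes that were not members themselves were above the line, which is 70.8%, against 63.3% of all genes. The highest neighbours of the members elsewhere were Ppp3r1 at 784 for Egfr, Rpl41 at 6137 for Erbb3, Lancl1 at 421 for Erbb4, Cystm1 at 3254 for Hbegf, Snrpg at 3878 for Tgfa and Gar1 at 860 for Egf.

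**Figure D4:**
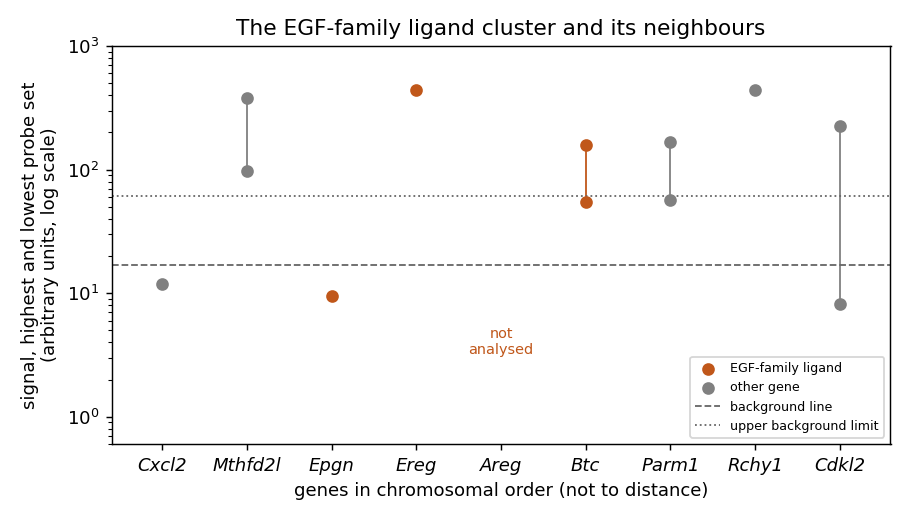
Highest and lowest probe set (points joined by a line where a gene has several, arbitrary units on a log axis) of the genes around Ereg, Areg and Btc in chromosomal order, without their distances. Ereg, Btc and the outer neighbours Mthfd2l, Parm1, Rchy1 and Cdkl2 reach above the upper background limit at 60.6, Epgn and Cxcl2 lie under the line at 16.8, and Areg was not analysed.

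The neuregulins, which bind Erbb3, Erbb4 or both, and epigen, a further ligand of Egfr, are EGF-family ligands outside the members. Of these 5 genes 2 exceeded the line and 0 exceeded the upper limit, while 4 of the 5 measured member ligands exceeded both. Of all genes 63.3% exceeded the line, and the share for the upper limit was 47.5%. Of the 3 neuregulin genes with 2 or more probe sets, 1 exceeded the line, against 78.6% of all such genes. Nrg1 and Epgn have a single probe set, and 1 of these 2 exceeded the line, against 48.4% of all such genes. Nrg1 read 43.9 on its only probe set. Nrg2 read 27.0, 7.98 and 2.97, so that 1 of its 3 probe sets passed the line. The highest readings of Nrg4, Nrg3 and Epgn were 12.1, 11.4 and 9.40. None of these 5 genes gave a signal beyond the highest background probe set. The array measures RNA of these cells and not the growth factors supplied by serum or by other cells.

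Of 11 genes of the proteases that release the ligands and of their regulators, 9 exceeded the line, among them 8 that exceeded the upper limit, against 63.3% and 47.5% of all genes. Of the 7 with 2 or more probe sets, 5 exceeded the line and 4 the upper limit, against 78.6% and 62.8% of all such genes. All 4 with a single probe set exceeded both, against 48.4% and 32.6% of all such genes. Adam9, a membrane-anchored metalloprotease, reached 3673, and Adam10, the main sheddase of EGF and betacellulin, reached 1309 with 3 of 4 probe sets above the line. Rhbdf1, which encodes an inactive rhomboid protein that helps ADAM17 to mature, reached 684. Adam17 itself, which sheds transforming growth factor alpha, epiregulin and heparin-binding EGF-like growth factor, read 406, 272 and 96.0, all above the upper limit. It is named here after its values were seen. The lowest were Adam19 at 13.1 and Nkd2, whose product carries transforming growth factor alpha to the basolateral membrane, at 7.24. Neither passed the line on any of its probe sets, which number 2 for Adam19 and 4 for Nkd2.

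All 20 genes of adaptors and effectors that dock on receptor tails were above the upper limit, against 47.5% of all genes. Of these, 16 have 2 or more probe sets, and 62.8% of all such genes on the array exceeded that limit. The other 4 have a single probe set, and 32.6% of all such genes exceeded it. In 18 of the 20 the median of all probe sets passed the line too, against 57.8% of all genes. Crk, an adaptor, reached 1644, Eps8, an EGFR substrate, reached 682, and Ptpn11, the phosphatase that couples receptors to RAS, reached 616. The lowest were Pik3r1, the regulatory subunit of phosphoinositide 3-kinase, at 111, and Gab1, a docking protein, at 77.3. Of their 60 probe sets 47 were above the line, against 60.9% of all one-gene probe sets.

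Of 20 genes that restrain receptors or sort them in endocytosis, 19 exceeded the line, among them 18 that exceeded the upper limit, where 63.3% and 47.5% of all genes did. Of the 18 with 2 or more probe sets, 17 exceeded both thresholds, where 78.6% and 62.8% of all such genes did. Errfi1, which encodes an inhibitor that binds the ERBB kinase domain and is induced by receptor signalling, gave signals of 1824 and 841, both above the upper limit. Cd2ap, an adaptor of the CBL pathway of receptor uptake, reached 1661, and Eps15, an endocytic adaptor, reached 947. Epn1, another endocytic adaptor, lay between the thresholds at 58.8 on its only probe set. Lrig3 read at most 8.68 and was not above the line on any of 3 probe sets, while its relative Lrig1, an inhibitor of ERBB receptors named after its values were seen, reached 197.

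All 9 measured genes of co-receptors and chaperones of ERBB proteins passed the line, and 8 of the 9 passed the upper limit as well, against 63.3% and 47.5% of all genes. Of the 9, 7 have 2 or more probe sets, and 78.6% and 62.8% of all such genes on the array passed these thresholds. The chaperone gene Hsp90aa1, whose product stabilises ERBB2, reached 5951 with 3 of 5 probe sets above the line. Sdc1, a heparan sulfate proteoglycan, reached 4427, and Cd9, a tetraspanin that associates with the heparin-binding EGF-like growth factor precursor, read 3578. Erbin, an ERBB2-binding scaffold, reached 763 and Muc4, a membrane mucin that binds ERBB2, reached 25.02, with 1 of its 3 probe sets above the line. Over the 5 lists together, 59 of 65 measured genes were above the line, against 63.3% of all genes and 78.6% of those with 2 or more probe sets. These counts describe transcripts and not the activity of the pathway.

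**Figure D5:**
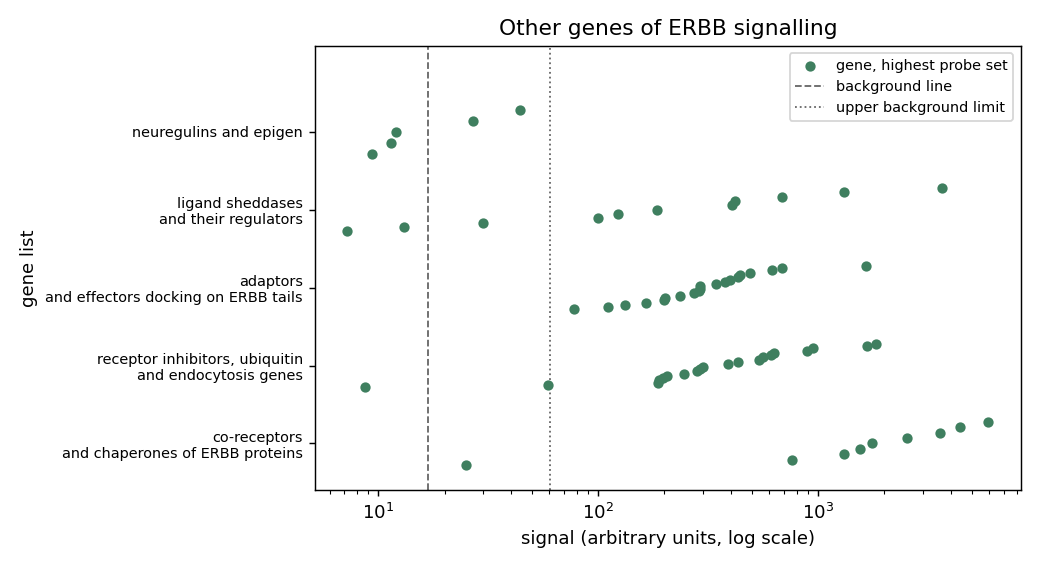
Signal of the highest probe set of each measured gene (points, arbitrary units on a log axis) in 5 lists of other ERBB signalling genes, with the background line at 16.8 and the upper background limit at 60.6. The neuregulins and epigen all lie under the upper limit, whereas all 20 adaptor genes and 8 of the 9 co-receptor and chaperone genes lie above it. Of all genes on the array 47.5% lie above it.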

How the data were processed

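Total RNA of 1 sample was labelled with biotin and hybridized to an Affymetrix array, according to the labels. The authors deposited 1 linear signal intensity for each probe set, and the submitters' processing notes name Affymetrix Expression Console as the software. The sources used here do not give its algorithm, version or background correction. The mean of the signals after trimming 2% at each end was 150.0, as scaling to a target would give, but no source used here states such a step. The platform's annotation gave the gene names (34945 with 1 gene, 932 with several, 9160 with none here), and RefSeq on GRCm38.p6 supplied current symbols by gene ID. Probe sets without exactly 1 gene were not used.

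Signals were taken to log2. With 1 array there is no replicate spread, and depth in the sense of counts does not apply. Probe sets of a gene are not replicates, and the spread between them mixes probe brightness, transcript variants and noise. Named genes were all members, the 3 highest and 2 lowest of each list (every gene of a list of 5), the genes around Areg, Ereg and Btc, and the highest neighbour of each other member. The members and lists were chosen with earlier results of these data known. Alternatives changed the line, the background set, the probe sets admitted, the rule that combines them and the symbols. A planned comparison of protein sequences was not made, since no protein table was used here. Likeness of pattern to other genes was not computed, because 1 sample has no pattern. Python 3.11.15, numpy 2.4.6, pandas 2.3.3, scipy 1.17.1 and matplotlib 3.10.9 were used.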

Additional observations from a re-analysis of the deposited data

How the results depend on the processing

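Over 10 alternatives, 1 of them chosen after seeing the data, the count of receptors above the line was 3 of 4 in 8, and the count of ligands ran from 3 to 5 of the 5 measured. Requiring the lowest probe set to pass left 1 receptor, since Egfr (-0.91) and Erbb3 (-2.09) fell below the line on the log2 scale, and left 10 of 20 adaptor genes, near the 47.0% of all genes above the line by that rule. Egf turned to just above the line with the line at the 90th percentile (0.094) and without keratin-associated protein genes (0.0017). With brain, retina, muscle and sperm genes as background the line was 180, raised by Tnnt2 at 1561, the only one of 21 measured genes of that list above the upper limit, and Erbb2 (-0.72) and Btc (-0.19) fell below it, leaving 32.9% of all genes above. The neuregulin and epigen count of 2 went to 1 with the line at the 99th percentile, at the second highest background probe set (the added alternative) or with the median or lowest probe set, and to 0 with the line at the highest background probe set or with the brain, retina, muscle and sperm genes. Hbegf, Tgfa and Ereg stayed above the line and Erbb4 below it in all 10. No paired analysis was possible because there was 1 sample. Dim signals are limited by the background: for Erbb4, Egf and Epgn, each with a single probe set, the array gives no level.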
